A study of Mus musculus with 3 samples.

Results

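The cells described here are the fat cells of mouse epididymal adipose tissue, seen as cluster 1 of the Mid_Ob library and cluster 2 of the Ctrl library in a single-nucleus RNA sequencing series. Both clusters were chosen by their measured levels of 5 adipocyte genes, Adipoq, Plin1, Cidec, Adrb3 and Pck1, so that these levels describe the choice and test nothing. They are 2 of 46 clusters in the series, which holds 11 clusters in Mid_Ob, 14 in Ctrl and 21 in the later Ob stage. Epididymal fat of 8 male C57BL/6J mice was mixed into 1 tube for each stage, so the series has 3 libraries and 1 sample per stage. The mice were 5 weeks old when bought and had 1 week to settle. Mid_Ob mice ate a high-fat diet and were taken while obesity developed, once body weight had passed a first limit above the control mean. Ctrl mice were normal mice on the ordinary diet. Ob mice, used here only for values set side by side, ate the same high-fat diet and had passed a higher weight limit. Drinking water was withheld before sampling at every stage. Age at sampling, time of day and access to food were not given in the sources used here. Diet, its duration and age cannot be told apart. A difference between the clusters has no replicate check, no test and no p-value.

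White adipocytes store energy as triglyceride in one large lipid droplet and release it as fatty acids and glycerol. In the fed state insulin promotes glucose uptake, the making of new fatty acids from acetyl-CoA and their joining to glycerol. Catecholamines act through beta-adrenergic receptors to start lipolysis, and the cells also secrete hormones such as leptin and adiponectin.

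The Mid_Ob cluster held 27025541 UMIs (unique molecular identifiers, each marking 1 captured transcript molecule), or 46.9% of the 57665213 UMIs of its library, and 24539 genes had at least 1 count. The Ctrl cluster held 13622520 UMIs, or 25.2% of 53980929, and 25746 genes. Levels are given as CPM, counts scaled to 1000000 UMIs of the cluster, and were not scaled for gene length. Ratios are Mid_Ob over Ctrl, with a 95% interval in parentheses that covers counting error only. A gene was counted when both clusters together held at least 50 counts, and is called higher or lower in Mid_Ob when its ratio passed 1.5-fold. Since CPM is a share of the UMIs in a cluster, less of a transcript and more of the others cannot be told apart.

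All 5 adipocyte markers were within 1.5-fold between the clusters. Cidec, a lipid droplet protein that drives droplet fusion, stood at 1168 CPM in the Mid_Ob cluster and 1123 CPM in the Ctrl cluster. Plin1, which coats the droplet and gates lipolysis, stood at 738 CPM in Mid_Ob and 681 CPM in Ctrl. Adrb3, the beta-3 adrenergic receptor of rodent fat, had 595 CPM in Mid_Ob and 581 CPM in Ctrl. Pck1, which supplies glycerol 3-phosphate in fat, had 148 CPM in Mid_Ob and 169.8 CPM in Ctrl. Adipoq, the gene of adiponectin, had 78.0 CPM in Mid_Ob and 92.5 CPM in Ctrl. Summed, the 5 genes reached 2728 CPM in the Mid_Ob cluster, against 108 to 1172 CPM in the 10 other clusters of that library. The sum was 2648 CPM in the Ctrl cluster, against 79.2 to 723 CPM in the 13 other Ctrl clusters. Plin1, Cidec, Adrb3 and Pck1 were each highest in the named cluster of both libraries. Adipoq was not, since cluster 5 of Mid_Ob had 134 CPM and cluster 1 of Ctrl had 92.7 CPM.

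The most abundant transcripts were largely shared. Malat1, a nuclear long noncoding RNA, took 5.12% of the UMIs in the Mid_Ob cluster and 3.20% in the Ctrl cluster. Ghr, the growth hormone receptor, followed at 10936 CPM in Mid_Ob and 10744 CPM in Ctrl, with a ratio of 1.02 (1.01 to 1.02). Ghr was far from even within the libraries, with 705 CPM in the other Mid_Ob clusters and 1432 CPM in the other Ctrl clusters. Pparg, the master transcription factor of fat cells, was among the 15 most abundant genes of the Mid_Ob cluster, at 2539.9 CPM against 2095 CPM in Ctrl. Ebf1, a transcription factor of the adipocyte lineage, stood at 3582 CPM in Mid_Ob and 4530.4 CPM in Ctrl. Tenm4, a cell surface protein, had 4868 CPM in Mid_Ob and 3616 CPM in Ctrl. Of the genes in the upper 15 of either cluster, the largest difference was that of Mageb18, described below.

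Over all 17042 genes counted, 2601 (15.3%) were higher and 3442 (20.2%) lower in the Mid_Ob cluster, and the median log2 ratio was -0.085. Of these, 1572 higher and 2299 lower genes had an interval wholly past 1.5-fold. With the profile of the whole library taken away, as described below, 3536 were higher and 3049 lower. The log2 CPM of the 16916 genes with a count in both clusters had a Pearson correlation of 0.82 and a Spearman correlation of 0.89 across genes, which are not replicates and share a library on each axis. A set of 757 genes was at least 2-fold above the other clusters of its own library in both stages, which is 48.9% of the 1547 such genes in Mid_Ob and 67.8% of the 1116 in Ctrl. Among the 757, 216 were higher and 95 lower in Mid_Ob, with a median log2 ratio of 0.15. The shares over all genes counted, 15.3% higher and 20.2% lower, belong beside every list count below. A list with counts near these shares is not set apart from other genes by them.

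**Figure D1:**
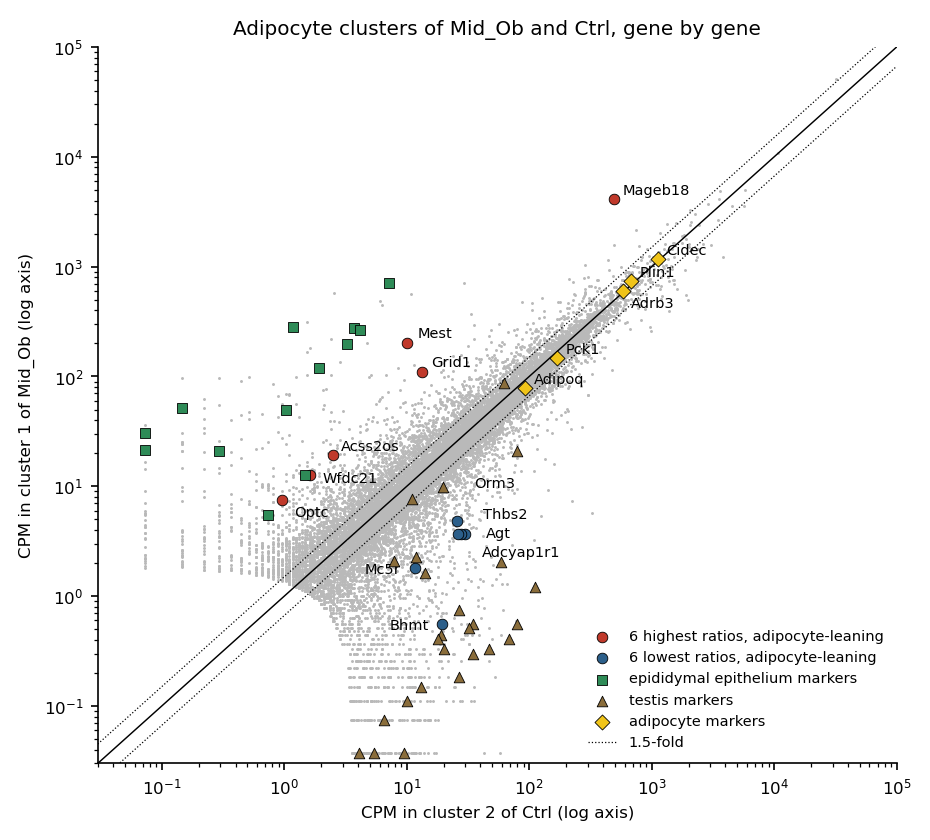
CPM of each counted gene with a count in both clusters, in cluster 1 of Mid_Ob (vertical log axis) and cluster 2 of Ctrl (horizontal log axis). The solid line marks equal levels and the dotted lines 1.5-fold; the 5 yellow adipocyte markers lie between the dotted lines, epididymal markers (squares) lie far above them and most testis markers (triangles) far below.

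The highest and lowest ratios overall belonged to genes of the male reproductive tract. All 15 genes of an epididymal epithelium list were higher in the Mid_Ob cluster, where they summed to 2070 CPM, against 25.2 CPM in the Ctrl cluster. The other clusters of the same libraries held 9394 CPM in Mid_Ob and 48.7 CPM in Ctrl. Adam7, a sperm-maturation protein of the epididymal duct, had 708 CPM in the Mid_Ob cluster and 7.12 CPM in the Ctrl cluster, a ratio of 99.4 that was 21.2 after subtraction. Testis lists went the other way. Spermatid markers, genes of sperm formation such as the protamines, summed to 14.8 CPM in Mid_Ob and 332 CPM in Ctrl, with all 11 counted members lower. Leydig markers, genes of testosterone synthesis, summed to 9.36 CPM in Mid_Ob and 202 CPM in Ctrl, and here the Ctrl cluster exceeded the other Ctrl clusters at 152 CPM. Spermatocyte markers summed to 116 CPM in Mid_Ob, of which Sycp3, a meiotic chromosome protein, made up 86.9 CPM, and to 316 CPM in Ctrl. Sycp3 also stood above the rest of the Mid_Ob library, which had 13.3 CPM. Epididymal RNA stood in the Mid_Ob cluster at 34.7% of its level in the whole library, and spermatid and spermatocyte RNA in the Ctrl cluster at 30.2%. In one alternative the expression profile of the whole library was subtracted at these shares, and for the genes described below the ratio after subtraction is given where it moved by over 1.5 times or changed a call. Subtraction at these shares cannot fully take away a level above that of the other clusters, such as Leydig markers in Ctrl or Sycp3 in Mid_Ob.

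Markers of other cells of fat were mostly present at lower sums than in the rest of each library. Lipid-associated macrophage markers were an exception, at 1434 CPM in the Mid_Ob cluster and 1497 CPM in the Ctrl cluster, against 664 CPM outside the cluster in Mid_Ob and 979 CPM in Ctrl. Lpl, an abundant gene of both clusters described below, is on this list and made up most of the sums inside the clusters. Of the 10 counted members of the list, 1 was higher and 5 lower in Mid_Ob. Fibroblast or progenitor markers summed to 948 CPM in Mid_Ob and 1041 CPM in Ctrl. Endothelial markers summed to 105 CPM in Mid_Ob and 89.9 CPM in Ctrl, and pericyte and smooth muscle markers to 98.5 CPM in Mid_Ob and 46.8 CPM in Ctrl. In Ctrl the pericyte sum also exceeded that of the other clusters, at 41.8 CPM. T cell markers summed to 168 CPM in the Mid_Ob cluster and 64.9 CPM in the Ctrl cluster, with 112 CPM in Mid_Ob from Skap1 alone, whose ratio of 4.74 was 1.94 after subtraction. Mesothelial markers summed to 247 CPM in Mid_Ob and 503 CPM in Ctrl, and 8 of 10 were lower. Macrophage markers summed to 781 CPM in Mid_Ob and 1240.2 CPM in Ctrl. Mertk, a receptor for dying cells, made up 268 CPM in Mid_Ob and 661 CPM in Ctrl, above the other clusters of both libraries at 208 CPM in Mid_Ob and 237 CPM in Ctrl. Red blood cell genes stayed at 12.4 CPM in Mid_Ob and 25.7 CPM in Ctrl. Transcripts of the mitochondrial genome made up 0.250% of UMIs in the Mid_Ob cluster and 0.132% in the Ctrl cluster, below the other clusters of each library at 0.426% in Mid_Ob and 0.250% in Ctrl. The part of these transcripts in the ratios below was not tested.

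**Figure D2:**
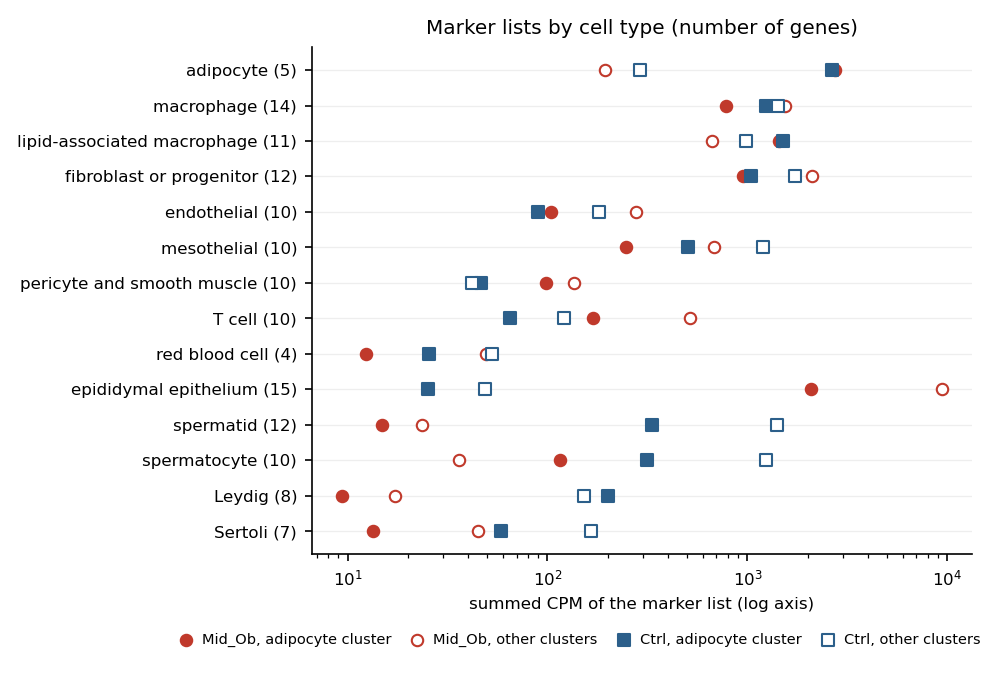
Summed CPM (log axis) of marker lists in the adipocyte cluster (filled) and the other clusters together (open) of Mid_Ob (circles) and Ctrl (squares). Epididymal markers reach 2070 CPM in the Mid_Ob cluster and 25.2 CPM in the Ctrl cluster, while the adipocyte sums nearly coincide.

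Genes for making new fatty acids were mostly higher in the Mid_Ob cluster. Of 17 members, 11 were higher and 3 lower, with a median log2 ratio of 1.07 beside -0.085 over all genes counted. The sum of the list was closer, at 5369 CPM in the Mid_Ob cluster and 4944 CPM in the Ctrl cluster. In the other clusters the list summed to 2361 CPM in Mid_Ob and 1606 CPM in Ctrl. The first step, the supply of cytosolic acetyl-CoA, had some of the larger ratios. Acss2, which makes acetyl-CoA from acetate, stood at 515 CPM in Mid_Ob and 126 CPM in Ctrl, a ratio of 4.08 (3.88 to 4.30). Acly, which makes it from citrate, stood at 404 CPM in Mid_Ob and 105 CPM in Ctrl, 3.83-fold (3.62 to 4.04). Slc25a1, which carries citrate out of mitochondria, had 41.1 CPM in Mid_Ob and 17.5 CPM in Ctrl. Acss2os, a noncoding RNA antisense to Acss2, went with it at 19.2 CPM in Mid_Ob and 2.50 CPM in Ctrl. No source used here tells whether strand was used in counting, so reads of this pair may not be told apart.

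The second step differed. Acaca, the acetyl-CoA carboxylase that makes malonyl-CoA for synthesis, was lower in Mid_Ob, at 1606 CPM against 2628 CPM in Ctrl, a ratio of 0.611 (0.603 to 0.620). Acacb, the form whose malonyl-CoA restrains fatty acid oxidation, was lower too, at 106 CPM in Mid_Ob and 324 CPM in Ctrl. Fasn, the fatty acid synthase downstream of them, was higher, at 273 CPM in Mid_Ob and 114 CPM in Ctrl, 2.39-fold (2.27 to 2.53). The median of Fasn over the other clusters was also higher in Mid_Ob, at 55.9 CPM against 26.4 CPM in Ctrl. Cluster 5 of Mid_Ob held Fasn at 275 CPM. Both carboxylases were thus lower while the synthase was higher.

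Among enzymes that lengthen and desaturate the product, Scd1 and Scd2 differed. Scd1, the main stearoyl-CoA desaturase of fat, had 688 CPM in Mid_Ob and 675 CPM in Ctrl. Scd2, its paralog, had 146 CPM in Mid_Ob and 47.1 CPM in Ctrl, 3.11-fold (2.86 to 3.39). Fads2, a desaturase of polyunsaturated fatty acids, had 68.1 CPM in Mid_Ob and 28.3 CPM in Ctrl, below the rest of its libraries at 139 CPM in Mid_Ob and 44.4 CPM in Ctrl. Elovl6, which lengthens palmitate, had 205 CPM in the Mid_Ob cluster and 48.4 CPM in the Ctrl cluster, 4.24-fold (3.91 to 4.60). Elovl6 was however higher in the rest of the Mid_Ob library, at 625 CPM, and reached 1160 CPM in its cluster 2, one of the clusters with epididymal genes. With the library profile taken away its ratio was 1.69. Acly also reached 576 CPM in cluster 3 of Mid_Ob, but its ratio after subtraction was 3.49, and those of Acss2 and Fasn were 4.59 and 2.37. The median of Acly over the other clusters was 119 CPM in Mid_Ob and 47.1 CPM in Ctrl. For Acss2 the same medians were 62.8 CPM in Mid_Ob and 48.6 CPM in Ctrl. Cluster 14 of Ctrl, however, held Acss2 at 465 CPM, above the Ctrl adipocyte cluster.

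Several helpers of synthesis were also higher. Me1, the malic enzyme that yields NADPH, stood at 749 CPM in Mid_Ob and 356 CPM in Ctrl. Thrsp, a lipogenic protein of fat and liver, stood at 274 CPM in Mid_Ob and 137 CPM in Ctrl, and Mid1ip1, its relative that activates acetyl-CoA carboxylase, at 24.3 CPM in Mid_Ob and 9.03 CPM in Ctrl, with a ratio of 2.70 that was 1.77 after subtraction. Aacs, which activates acetoacetate for lipid synthesis, had 183 CPM in Mid_Ob and 106 CPM in Ctrl. Acsbg1, an acyl-CoA synthetase, was the lowest of the list, at 30.4 CPM in Mid_Ob and 152 CPM in Ctrl, and it too was higher outside the cluster, at 119 CPM in the other Mid_Ob clusters and 174 CPM in the other Ctrl clusters. Its ratio of 0.200 was 0.0371 after subtraction.

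The regulators of these genes were mostly within 1.5-fold, with 1 of 12 higher and 2 lower. Srebf1, the sterol response element binding factor that drives lipogenic genes, had 86.2 CPM in Mid_Ob and 60.0 CPM in Ctrl, a ratio of 1.44 (1.33 to 1.56) that reached 1.502 with the median of gene ratios as scaling. Mlxipl, the carbohydrate response factor ChREBP, was lower at 309 CPM in Mid_Ob and 600.4 CPM in Ctrl. Rxra, the partner of many nuclear receptors, was lower at 46.7 CPM in Mid_Ob and 74.5 CPM in Ctrl. Insig1, which holds the sterol-sensing SREBP complex in the endoplasmic reticulum and is itself an SREBP target, was higher at 188 CPM in Mid_Ob and 31.6 CPM in Ctrl, 5.93-fold (5.37 to 6.56). Its level outside the cluster was 49.2 CPM in Mid_Ob and 12.5 CPM in Ctrl.

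**Figure D3:**
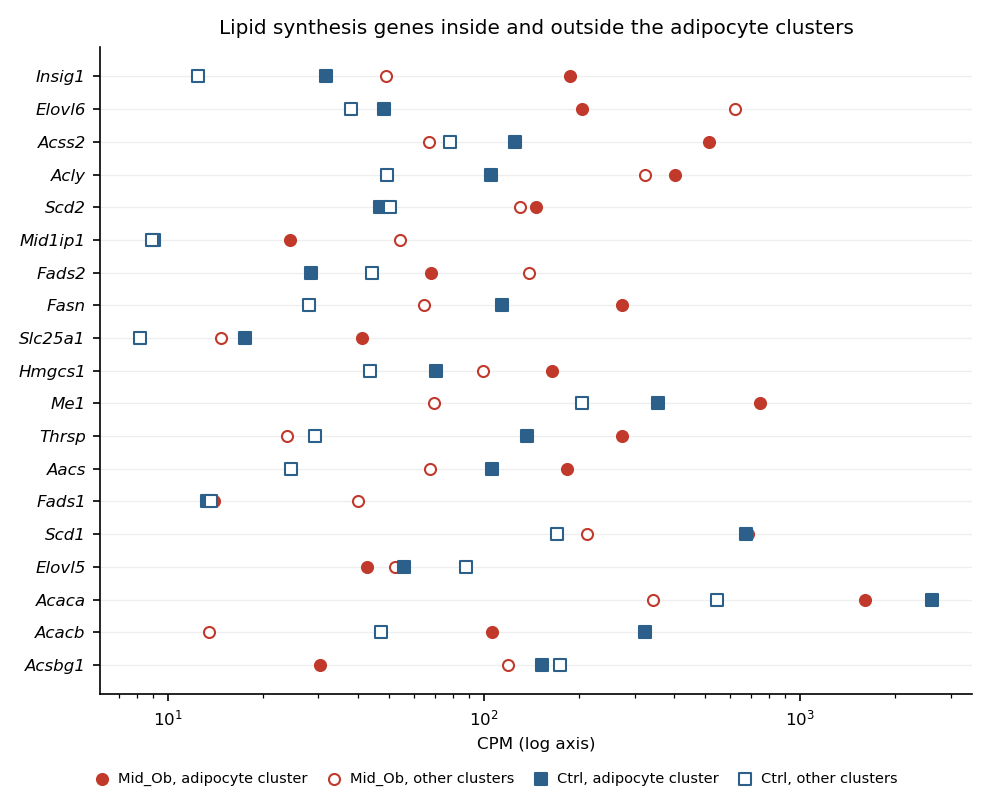
CPM (log axis) of the 17 fatty acid synthesis genes with Insig1 and Hmgcs1 in the adipocyte cluster (filled) and the other clusters together (open) of Mid_Ob (circles) and Ctrl (squares), ordered by the ratio between the adipocyte clusters. Acss2 stands at 515 CPM in the Mid_Ob cluster and 67.0 CPM outside it, while Elovl6 stands at 205 CPM inside and 625 CPM outside.

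Genes of cholesterol synthesis, the other arm under SREBP control, were listed together with genes of cholesterol transport. Of these 18 genes 12 were higher and 2 lower, with a median log2 ratio of 0.76. Their sum was nonetheless slightly lower in Mid_Ob, at 1440 CPM against 1530 CPM in Ctrl. Hmgcs1, which makes HMG-CoA, had 165 CPM in Mid_Ob and 70.8 CPM in Ctrl, 2.32-fold (2.17 to 2.49). The later enzymes Mvd, Lss and Fdps were 3.05-fold, 2.02-fold and 2.01-fold higher in Mid_Ob. Abca1, which exports cholesterol, was lower at 674 CPM in Mid_Ob and 1091 CPM in Ctrl. With the stricter call of an interval wholly past 1.5-fold, 7 of the 18 were higher.

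Promoters of 4 of these genes are shown because the genes were higher in Mid_Ob in both arms of lipid synthesis. Each is the 250 bases before the RefSeq start in GRCm38.p6, and capitals mark matches, on either strand, to the sterol response element TCACNCCAC, the E-box CACGTG, the CCAAT box CCAAT and the GC box GGGCGG, where both CCAAT matches nearest the Fasn start share 2 bases.
Acss2 (chr2:155517793-155518042, plus strand): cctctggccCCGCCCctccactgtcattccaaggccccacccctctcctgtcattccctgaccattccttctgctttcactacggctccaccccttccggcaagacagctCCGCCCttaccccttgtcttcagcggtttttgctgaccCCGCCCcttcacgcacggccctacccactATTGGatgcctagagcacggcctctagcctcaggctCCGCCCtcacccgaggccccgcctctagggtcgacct
Fasn (chr11:120824548-120824797, minus strand): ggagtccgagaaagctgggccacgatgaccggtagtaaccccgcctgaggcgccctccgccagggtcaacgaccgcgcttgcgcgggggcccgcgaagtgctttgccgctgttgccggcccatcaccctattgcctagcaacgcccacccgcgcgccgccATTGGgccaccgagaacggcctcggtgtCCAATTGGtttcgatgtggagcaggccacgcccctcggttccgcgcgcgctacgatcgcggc
Insig1 (chr5:28071162-28071411, plus strand): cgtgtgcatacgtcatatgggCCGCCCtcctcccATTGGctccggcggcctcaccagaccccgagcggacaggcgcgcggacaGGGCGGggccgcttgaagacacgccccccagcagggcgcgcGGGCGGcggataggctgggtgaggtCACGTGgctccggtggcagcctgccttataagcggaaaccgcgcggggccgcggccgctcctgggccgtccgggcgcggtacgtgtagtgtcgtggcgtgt
Hmgcs1 (chr13:119690101-119690350, plus strand): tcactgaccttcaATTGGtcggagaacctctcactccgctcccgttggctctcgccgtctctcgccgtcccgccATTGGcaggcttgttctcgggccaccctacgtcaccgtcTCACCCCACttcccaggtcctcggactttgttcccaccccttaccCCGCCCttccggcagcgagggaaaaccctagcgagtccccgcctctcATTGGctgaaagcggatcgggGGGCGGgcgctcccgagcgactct

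Hmgcs1 alone of these held the sterol response element in those letters, starting 137 bases before the start site, a match found in 1.05% of 32851 mouse promoters of the same length. Insig1 held the E-box, 101 bases before the start, which 6.02% of promoters hold. The CCAAT box was in all 4 windows and in 33.8% of promoters. The GC box was in 3 of them, Fasn being without it, and in 32.7% of promoters. Of the 8 higher cholesterol genes with a promoter in the table, 8 held the CCAAT box and 8 the GC box, and of the 10 higher fatty acid synthesis genes with one, 5 held the CCAAT box and 6 the GC box. The sterol response element was in 1 of the 8 and 0 of the 10, and the E-box in 2 of the 8 and 1 of the 10. A match to letters is a description and no sign of binding.

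Genes that join fatty acids to glycerol were mixed, with 5 of 14 higher, 3 lower and a median log2 ratio of -0.14. Gpd1, which makes glycerol 3-phosphate from a glycolysis product, stood at 142 CPM in Mid_Ob and 20.5 CPM in Ctrl, 6.94-fold (6.15 to 7.87). Dgat2, which adds the last fatty acid, stood at 1146 CPM in Mid_Ob and 439 CPM in Ctrl, 2.61-fold (2.54 to 2.68). Agpat2, the acyltransferase whose loss causes lipodystrophy, had 158 CPM in Mid_Ob and 51.8 CPM in Ctrl. Gpat3, an enzyme of the first acylation, was 1.63-fold higher, while Gpat4, another of the first step, was lower at 59.8 CPM in Mid_Ob and 159 CPM in Ctrl. Lpin1, a phosphatidate phosphatase, was lower at 489 CPM in Mid_Ob and 876 CPM in Ctrl. Dgat1, the other enzyme of the last step, was within 1.5-fold at 178 CPM in Mid_Ob and 218 CPM in Ctrl. Gk, the glycerol kinase, was 2.37-fold higher but stood at 367 CPM in the other Mid_Ob clusters, and its ratio after subtraction was 0.83.

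Of 19 genes of glycolysis and NADPH supply, which provide carbon and reducing power for synthesis, 7 were higher, 10 within 1.5-fold and 2 lower, with a median log2 ratio of 0.40. Hk2, an insulin-responsive hexokinase, had 379 CPM in Mid_Ob and 207 CPM in Ctrl. Pfkfb3, which makes the activator of phosphofructokinase, had 652 CPM in Mid_Ob and 346 CPM in Ctrl. Tkt and Pgd of the pentose phosphate pathway were 1.94-fold and 1.58-fold higher. Hk1, the housekeeping hexokinase, was lower with 486 counts in Mid_Ob and 480 counts in the smaller Ctrl cluster, a ratio of 0.510 (0.449 to 0.580), but stood at 112 CPM in the other Ctrl clusters, and after subtraction its ratio was 1.29.

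Fatty acid uptake genes had 7 of 19 higher and 0 lower, with a median log2 ratio of 0.41. Angptl8, an insulin-induced secreted protein that restrains lipoprotein lipase, had 19.8 CPM in Mid_Ob and 3.08 CPM in Ctrl, 6.42-fold (4.69 to 9.01). Acsl1, the main acyl-CoA synthetase of fat, had 1436 CPM in Mid_Ob and 908 CPM in Ctrl. Fabp5, a fatty acid carrier, had 11.4 CPM in Mid_Ob and 4.99 CPM in Ctrl. Lpl, the lipase that frees fatty acids from lipoproteins, was level at 1277 CPM in Mid_Ob and 1139 CPM in Ctrl, and Cd36, a fatty acid receptor, at 1222 CPM in Mid_Ob and 1524 CPM in Ctrl.

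The lipases Lipe and Pnpla2 were within 1.5-fold, while G0s2 and Hilpda were higher. Lipe, the hormone-sensitive lipase, had 542 CPM in Mid_Ob and 573 CPM in Ctrl. Pnpla2, the triglyceride lipase ATGL, had 78.9 CPM in Mid_Ob and 64.5 CPM in Ctrl. G0s2, an inhibitor of ATGL, had 463 CPM in Mid_Ob and 206 CPM in Ctrl, 2.24-fold (2.15 to 2.34). Hilpda, another ATGL inhibitor and a hypoxia target, had 17.8 CPM in Mid_Ob and 4.04 CPM in Ctrl. Ces1d, a carboxylesterase that hydrolyses triglyceride, was lower at 50.2 CPM in Mid_Ob and 205 CPM in Ctrl, a ratio of 0.245 (0.230 to 0.262). In all, 2 of 11 members were higher and 2 lower, near the 15.3% and 20.2% over all genes counted. Of 9 droplet coat genes, 1 was higher, Plin2, at 169 CPM in Mid_Ob and 98.5 CPM in Ctrl, and 2 were lower, Hsd17b11 and Plin5. With the median of gene ratios as scaling the ratio of Plin5 was 0.681, inside the limit.

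Receptor and cAMP genes had 3 of 17 higher and 1 lower, beside 15.3% and 20.2% over all genes counted. Npr3, the clearance receptor that removes natriuretic peptides, was among the more abundant genes of the Mid_Ob cluster, at 2145 CPM against 743 CPM in Ctrl, 2.89-fold (2.83 to 2.95). Npr1, the signalling receptor for the same peptides, was lower at 8.36 CPM in Mid_Ob and 33.8 CPM in Ctrl, and it was higher outside the clusters, at 22.0 CPM in Mid_Ob and 76.2 CPM in Ctrl. Gnai1, an inhibitory G protein subunit, and Adcy5, an adenylyl cyclase, were 1.70-fold and 1.71-fold higher.

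Insulin signalling genes had 1 of 20 higher and 3 lower, beside 15.3% and 20.2% over all genes counted. Foxo1, a transcription factor that insulin keeps out of the nucleus, was lower at 535 CPM in Mid_Ob and 1221 CPM in Ctrl, a ratio of 0.438 (0.429 to 0.448). Pde3b, the phosphodiesterase by which insulin lowers cAMP, was lower at 749 CPM in Mid_Ob and 1525 CPM in Ctrl. Irs1, an insulin receptor substrate, had 156 CPM in Mid_Ob and 233 CPM in Ctrl, a ratio of 0.667 at the limit of the call, which was no longer past it after subtraction (0.667) or with the median of gene ratios as scaling (0.697). Grb14, an inhibitor of the insulin receptor, was higher at 96.2 CPM in Mid_Ob and 38.9 CPM in Ctrl. Insr, the receptor, had 469.8 CPM in Mid_Ob and 608 CPM in Ctrl, and Slc2a4, the transporter GLUT4, had 24.6 CPM in Mid_Ob and 31.1 CPM in Ctrl, both within 1.5-fold.

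Adipogenic transcription factors had 0 of 16 higher and 4 lower, beside 15.3% and 20.2% over all genes counted. Nfia, a factor of brown and beige programmes, had 1589 CPM in Mid_Ob and 3068 CPM in Ctrl. Cebpa, a partner of PPARgamma, had 45.3 CPM in Mid_Ob and 44.3 CPM in Ctrl. Thermogenic genes had 2 of 8 counted higher and 1 lower. Ucp1, the uncoupling protein of brown fat, had 0 counts in Mid_Ob, which allows up to 0.111 CPM at 3 counts, and 1 count in Ctrl. Prdm16, a regulator of brown fat, had 55.2 CPM in Mid_Ob and 23.5 CPM in Ctrl, but 123 CPM in the other Mid_Ob clusters. Of 18 nuclear-encoded respiratory chain genes, 0 were higher and 2 lower, and their median log2 ratio was -0.38. After subtraction 1 was higher and 4 lower. Fatty acid oxidation had 1 of 17 higher, Cpt1a, the gate of mitochondrial import, at 82.1 CPM in Mid_Ob and 41.2 CPM in Ctrl, and 4 lower. By intervals wholly past 1.5-fold 1 was lower, and after subtraction 3 were higher. Pdk4, which blocks pyruvate oxidation in fasting, was lower at 28.7 CPM in Mid_Ob and 82.1 CPM in Ctrl, a ratio of 0.35 (0.32 to 0.38).

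Among 14 adipokine genes, 4 were higher and 3 lower, beside 15.3% and 20.2% over all genes counted. Lep, the gene of leptin, whose level follows fat mass, stood at 547 CPM in Mid_Ob and 235 CPM in Ctrl, 2.33-fold (2.24 to 2.42). Rbp4, the retinol carrier, had 49.5 CPM in Mid_Ob and 29.7 CPM in Ctrl. Agt, angiotensinogen, was lower at 3.66 CPM in Mid_Ob and 27.8 CPM in Ctrl. Nampt, an enzyme of NAD synthesis that is also secreted, had 139.8 CPM in Mid_Ob and 341 CPM in Ctrl. Cfd, the complement protease adipsin, had 39.5 CPM in Mid_Ob and 86.5 CPM in Ctrl.

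Genes tied to fat mass expansion had 4 of 8 higher and 0 lower, with a median log2 ratio of 0.78. Mest, an imprinted gene known as a marker of expanding fat in mice, had the largest ratio among adipocyte-leaning genes, those at least 2-fold above the other clusters of the library where they were higher. Mest (chr6:30723547-30748465 in GRCm38) had 5505 counts, or 204 CPM, in the Mid_Ob cluster and 137 counts, or 10.1 CPM, in the Ctrl cluster, 20.3-fold (17.1 to 24.2). The rest of the Mid_Ob library held it at 24.6 CPM and the rest of Ctrl at 7.19 CPM. Copg2 overlaps Mest on the other strand. Trp53inp2, an autophagy regulator, had 339 CPM in Mid_Ob and 121 CPM in Ctrl, and Bmp3, a BMP family ligand, had 18.1 CPM in Mid_Ob and 8.44 CPM in Ctrl.

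Matrix genes had 7 of 18 higher and 2 lower, with 4 lower after subtraction. Collagen VI, a pericellular collagen of fat cells, was higher in all 3 chains counted, with Col6a3 at 135 CPM in Mid_Ob and 39.5 CPM in Ctrl, 3.42-fold (3.12 to 3.75). Col5a3 had 587 CPM in Mid_Ob and 283 CPM in Ctrl, and Col15a1, of the basement membrane zone, 448 CPM in Mid_Ob and 225 CPM in Ctrl. The collagen IV chains Col4a1 and Col4a2 were within 1.5-fold. Spon1, a secreted adhesion protein, was lower at 15.7 CPM in Mid_Ob and 76.9 CPM in Ctrl. Igf1, the growth hormone-induced growth factor, was higher at 466 CPM in Mid_Ob and 105 CPM in Ctrl, 4.46-fold (4.22 to 4.71). Outside the adipocyte clusters Igf1 reached 371 CPM in cluster 4 of Mid_Ob and 337 CPM in cluster 4 of Ctrl. The growth factor list had 2 of 15 higher and 5 lower, beside 15.3% and 20.2% over all genes counted. Its member Fgf2 had 86.1 CPM in Mid_Ob and 197 CPM in Ctrl.

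Of 12 glucocorticoid-responsive genes, 0 were higher, 6 within 1.5-fold and 6 lower, and the median log2 ratio of -0.61 was the lowest of the 25 lists. The lists were chosen with earlier results of these data known, so this rank tests nothing. Zbtb16, a transcription factor that glucocorticoids induce, was among the 15 most abundant genes of the Ctrl cluster, and stood at 1233 CPM in Mid_Ob against 3850.2 CPM in Ctrl, a ratio of 0.320 (0.316 to 0.325). Fkbp5, a co-chaperone of the glucocorticoid receptor and one of its classical targets, had 556 CPM in Mid_Ob and 1905 CPM in Ctrl, 0.292 (0.286 to 0.298). Fkbp5 was not confined to fat cells and stood at 753 CPM in the other Mid_Ob clusters and 796 CPM in the other Ctrl clusters. Zbtb16 was lower in Mid_Ob outside the fat cells too, with a median of 236 CPM over its other clusters and 707 CPM over those of Ctrl. The whole list summed to 3015 CPM in the Mid_Ob cluster and 7357 CPM in the Ctrl cluster. In the other clusters it summed to 1523 CPM in Mid_Ob and 2584 CPM in Ctrl. Hsd11b1, which regenerates active glucocorticoid, had 15.2 CPM in Mid_Ob and 52.1 CPM in Ctrl. Tsc22d3, the gene of GILZ, had 506 CPM in Mid_Ob and 788 CPM in Ctrl, a ratio of 0.642 that was 0.671, inside the limit, with the median of gene ratios as scaling. Nr3c1, the receptor itself, was within 1.5-fold at 329.9 CPM in Mid_Ob and 267 CPM in Ctrl.

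Clock genes had 2 of 19 higher and 2 lower, with 4 higher after subtraction. Before subtraction, 15.3% of all genes counted were higher and 20.2% lower. Bhlhe40 and Bhlhe41, repressors of clock output, were 4.01-fold and 3.86-fold higher in Mid_Ob, while the core genes Arntl, Per1, Per2, Cry1 and Nr1d1 were within 1.5-fold. The ratio of Cry1 was 1.05, and 3.07 after subtraction. Bhlhe40 stood at 33.2 CPM in the Mid_Ob cluster and 58.0 CPM in the rest of that library. Immediate early genes had 5 of 15 higher and 2 lower, with Fosb at 140 counts in Mid_Ob and 6 counts in Ctrl, where subtraction left 0.0376 CPM, less than 3 counts, and Egr1 at 5.44 CPM in Mid_Ob and 1.98 CPM in Ctrl. Heat shock and unfolded protein genes had 1 of 14 higher and 2 lower.

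Chemokine, cytokine and acute phase genes had 9 of 15 counted higher and 2 lower, at low levels. Ccl2, which draws monocytes, had 200 counts or 7.40 CPM in Mid_Ob and 13 counts or 0.95 CPM in Ctrl, 7.75-fold (4.43 to 14.8). Subtraction left Ccl2 at 7.44 CPM in Mid_Ob and at 0.0763 CPM, less than 3 counts, in Ctrl. Ccl7, with a similar role, had 116 counts in Mid_Ob and 7 counts in Ctrl. Saa3, an acute phase protein of mouse fat, had 9.77 CPM in Mid_Ob and 2.06 CPM in Ctrl, a ratio of 4.75 that was 7.45 after subtraction. Lcn2, a lipocalin of inflammation, had 37.0 CPM in the Mid_Ob cluster and 6.83 CPM in the Ctrl cluster, but 111 CPM in the rest of Mid_Ob, and its ratio of 5.42 was 2.96 after subtraction. Il6, Il1b and Tnf stayed below 50 counts, with 30 counts of Tnf in Mid_Ob and 8 in Ctrl. Hypoxia genes had 5 of 14 higher (3 by intervals wholly past 1.5-fold) and 0 lower, with Hif1a, the oxygen-sensitive factor, at 160.0 CPM in Mid_Ob and 80.6 CPM in Ctrl. Complement genes had 1 of 13 higher and 3 lower, beside 15.3% and 20.2% over all genes counted. C7, a terminal component, had 48.3 CPM in Mid_Ob and 209 CPM in Ctrl, and 244 CPM in the other Ctrl clusters.

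**Figure D4:**
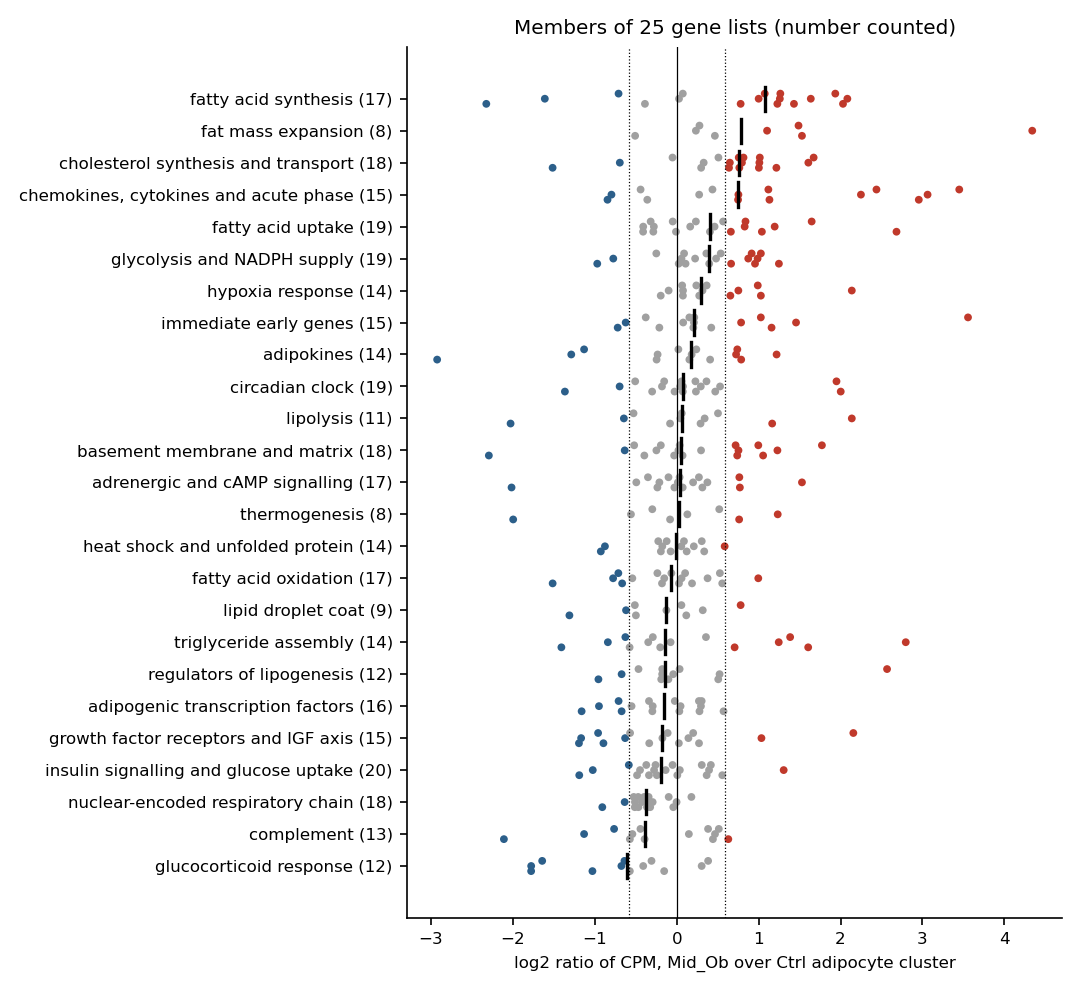
Log2 ratio of CPM, Mid_Ob over Ctrl adipocyte cluster, of each member of 25 gene lists with at least 50 counts, with red points past 1.5-fold higher, blue points past 1.5-fold lower, dotted lines at 1.5-fold and black bars for the median of each list. The medians run between 1.07 for fatty acid synthesis and -0.61 for the glucocorticoid response.

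Ranked without lists, the 12 adipocyte-leaning genes with the highest ratios were Mest, Mageb18, Grid1, Optc, Wfdc21, Acss2os, Col12a1, Gpd1, Tuba1a, Angptl8, Pcolce2 and Insig1, each with at least 200 counts in the pair. Mageb18, a member of the MAGE family on the X chromosome (chrX:92118879-92599572 in GRCm38), had 111852 counts or 4139 CPM in the Mid_Ob cluster and 6698 counts or 492 CPM in the Ctrl cluster, 8.42-fold (8.21 to 8.63). In the other clusters it had 219 CPM in Mid_Ob and 459 CPM in Ctrl, so that it leaned to the adipocyte cluster 18.9-fold in Mid_Ob and 1.07-fold in Ctrl. Grid1, a delta-type glutamate receptor, had 111 CPM in Mid_Ob and 13.4 CPM in Ctrl, 8.24-fold (7.10 to 9.62), and leaned to the cluster 14.8-fold in Mid_Ob and 1.40-fold in Ctrl. Mageb18 and Grid1 entered this ranking through a required lean of at least 2-fold in Mid_Ob. The gap in lean between the stages therefore describes the choice and tests nothing. Tuba1a, an alpha-tubulin with close relatives, had 132 CPM in Mid_Ob and 19.5 CPM in Ctrl. Col12a1, a fibril-associated collagen, had 32.3 CPM in Mid_Ob and 4.62 CPM in Ctrl, and Pcolce2, which helps to process procollagen, 53.1 CPM in Mid_Ob and 8.74 CPM in Ctrl, 6.08-fold and 12.4-fold after subtraction.

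The 12 adipocyte-leaning genes with the lowest ratios were Bhmt, Adcyap1r1, Agt, Thbs2, Mc5r, Orm3, Ttpa, Dennd2d, Slc35e4, Cyp2e1, Ces1d and Gsta3. Bhmt, which remethylates homocysteine with betaine, had 15 counts in Mid_Ob and 265 counts in Ctrl, a ratio of 0.0285 (0.0157 to 0.0479). Cyp2e1, a cytochrome P450 that oxidises ethanol and ketones, was the most abundant of them, at 114 CPM in Mid_Ob and 471 CPM in Ctrl. It leaned to the adipocyte cluster in both stages, 8.68-fold in Mid_Ob and 7.87-fold in Ctrl. Orm3, an acute phase carrier protein, had 4.81 CPM in Mid_Ob and 25.8 CPM in Ctrl. Ttpa, which carries vitamin E, had 7.51 CPM in Mid_Ob and 35.7 CPM in Ctrl. Receptors for the peptides PACAP (Adcyap1r1) and melanocortin (Mc5r) stood at 3.66 CPM and 1.81 CPM in Mid_Ob, and at 29.9 CPM and 11.6 CPM in Ctrl.

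Clusters 4 and 7 of the later Ob library, which also carry the 5 markers (4120 CPM and 4209 CPM in sum), are set beside both clusters in stage order. Cluster 5 of Ob, at 2523 CPM, held macrophage markers as well (2316 CPM) and is left out of the values below. Clusters 18 and 13 of Ob, at 3075 CPM and 2226 CPM, are left out too, and clusters 4 and 7 had the highest sums of the library. Adrb3 stood at 745 CPM and 851 CPM in clusters 4 and 7, against 147 CPM and 114 CPM in clusters 18 and 13. Adipoq alone of the 5 markers went the other way. It had 198 CPM and 180 CPM in clusters 4 and 7, against 826 CPM and 566 CPM in clusters 18 and 13. Some genes stood high in Mid_Ob and Ob. Mest had 10.1 CPM in Ctrl, 204 CPM in Mid_Ob and 292 CPM and 185 CPM in clusters 4 and 7 of Ob. Mageb18 had 492 CPM in Ctrl, 4139 CPM in Mid_Ob and 5506 CPM and 4086 CPM in Ob. Insig1 had 31.6 CPM in Ctrl, 188 CPM in Mid_Ob and 211 CPM and 157 CPM in Ob. Gpd1 had 20.5 CPM in Ctrl, 142 CPM in Mid_Ob and 166 CPM and 133 CPM in Ob, and Igf1 had 105 CPM in Ctrl, 466 CPM in Mid_Ob and 697 CPM and 608 CPM in Ob.

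Angptl8 and some fatty acid synthesis genes stood apart from these, while most members of that list are not set beside Ob here. Acly had 105 CPM in Ctrl, 404 CPM in Mid_Ob and 48.6 CPM and 59.6 CPM in Ob, below Ctrl. Fasn had 114 CPM in Ctrl, 273 CPM in Mid_Ob and 73.3 CPM and 45.2 CPM in Ob. Elovl6 had 48.4 CPM in Ctrl, 205 CPM in Mid_Ob and 15.1 CPM and 19.7 CPM in Ob. Acss2 had 126 CPM in Ctrl, 515 CPM in Mid_Ob and 164 CPM and 127 CPM in Ob. Angptl8 had 3.08 CPM in Ctrl, 19.8 CPM in Mid_Ob and 3.02 CPM and 1.98 CPM in Ob. For these genes the Mid_Ob cluster was thus the highest of the 4 clusters, whereas Acaca had 2628 CPM in Ctrl, 1606 CPM in Mid_Ob and 428 CPM and 417 CPM in Ob.

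Several genes low in Mid_Ob were also low in Ob. Fkbp5 had 1905 CPM in Ctrl, 556 CPM in Mid_Ob and 353 CPM and 378 CPM in Ob. Zbtb16 had 3850.2 CPM in Ctrl, 1233 CPM in Mid_Ob and 1316 CPM and 1469 CPM in Ob. Foxo1 had 1221 CPM in Ctrl, 535 CPM in Mid_Ob and 565 CPM and 540.4 CPM in Ob. Pde3b differed, with 1525 CPM in Ctrl, 749 CPM in Mid_Ob and 1415 CPM and 1545 CPM in Ob, as did Pdk4, with 82.1 CPM in Ctrl, 28.7 CPM in Mid_Ob and 178 CPM and 158 CPM in Ob. The Ob clusters come from 1 library and are not replicates of each other.

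**Figure D5:**
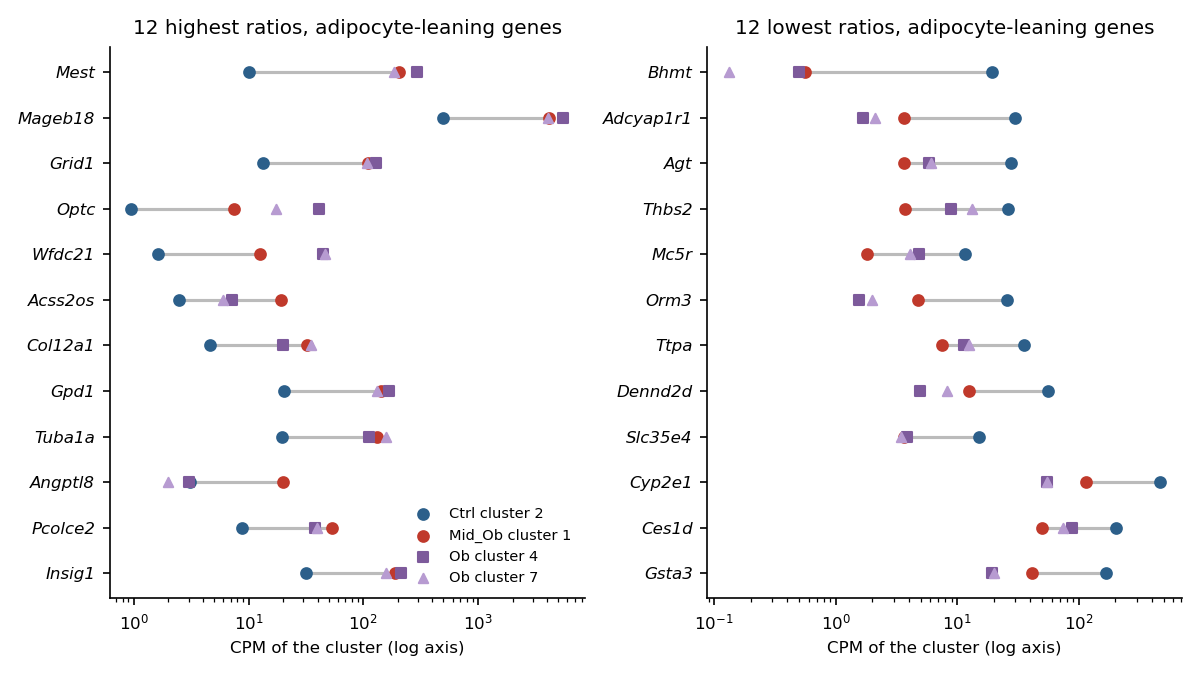
CPM (log axis) of the 12 adipocyte-leaning genes with the highest (left) and lowest (right) ratios, in the adipocyte clusters of Ctrl and Mid_Ob, joined by a grey line, and in clusters 4 and 7 of Ob. Angptl8 is high in Mid_Ob alone, at 19.8 CPM, while Mest stands at 185 CPM or more in Mid_Ob and both Ob clusters.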

How the data were processed

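Nuclei of 3 pooled libraries were profiled with droplet-based 10x chemistry. The authors aligned and counted reads with Cell Ranger (STAR). Versions, genome build and whether the study's nucleus filters and doublet removal precede these tables were not given in the sources used here. The deposited signal columns are the authors' mean counts per cluster, scaled by size factors, with 1 library per stage. Counts were recovered by dividing each column by its smallest step, with 100% of values whole within 0.001. The number of nuclei could not be derived. Deposited log2 fold changes and adjusted p-values of each cluster against the rest were not used.

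Counts were scaled to CPM and ratios given with conditional binomial intervals (95%), covering counting error only, with 0 counts set to 3 for ratios. Count recovery, intervals and calls were checked on data simulated with counting error alone. Differences between mice or libraries were not simulated. Symbols and coordinates came from GENCODE M21 of GRCm38, which matched 29593 of 29625 identifiers. Named were the 5 markers, the 15 most abundant genes of each cluster, the 12 highest and 12 lowest ratios with at least 200 counts (over all genes, given as reproductive tract sums, and among adipocyte-leaning genes) and examples from 25 lists of 380 genes, 379 of them matched. A few list members are not reported here. Members and lists were chosen with earlier results of these data known. Alternatives were other count minimums, scaling, call rules, gene sets and subtraction of the library profile. Python 3.11.15 was used, with pandas 2.3.3 for tables, numpy 2.4.6 and scipy 1.17.1 for statistics and matplotlib 3.10.9 for plots.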

Additional observations from a re-analysis of the deposited data

How the results depend on the processing

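No paired analysis was possible because each stage is 1 library. A minimum of 10 counts gave 5797 lower genes and a median log2 ratio of -0.12, and a minimum of 200 counts gave 1688 higher, 1758 lower and -0.064. A 2-fold limit gave 1498 higher and 2088 lower genes, and intervals wholly past 1.5-fold gave 1572 higher genes. The median was -0.021 with the median of gene ratios as scaling, -0.056 without the 10 most abundant genes and -0.044 with the library profile subtracted, where 3536 genes were higher and 3049 lower, beside 2601 and 3442. Fatty acid synthesis kept a count of 10 or 11 higher members under every alternative run.

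Of 171 called genes among 390 markers, list members and ranked genes, 10 were no longer past 1.5-fold after subtraction, Irs1, Esrrg, Epas1 and Hsp90aa1 among them. The log2 ratio changed sign there for Gk (-0.27), Hk1 (0.37), Cx3cl1 (-0.38), Cpt1b (3.83) and Gatm (2.95), the last 2 against a Ctrl level of 0 set to 3 counts. With the median of gene ratios as scaling, 9 genes moved inside the limit, Irs1, Plin5 and Tsc22d3 among them. Of 50 list counts (25 lists, higher and lower), 27 differed by over 1.5 times with the 2-fold limit, 15 by intervals, 11 after subtraction and 9 with the median of gene ratios as scaling. After subtraction the higher counts that differed were fatty acid oxidation (3), clock (4), complement (2), adipogenic factors (1) and respiratory chain (1). The lower counts were respiratory chain (4), matrix (4), adrenergic and cAMP signalling (2), glycolysis and NADPH supply (1), hypoxia (1) and heat shock (1). By intervals the higher counts were cholesterol (7), hypoxia (3), growth factors (1), heat shock (0) and complement (0). The lower counts by intervals were 0 for immediate early genes and 1 each for lipogenic regulators, lipolysis, droplet coat, fatty acid oxidation, respiratory chain, matrix, heat shock, clock and chemokines. Adding cluster 5 to clusters 4 and 7 of Ob changed 13 genes by factors of 0.725 to 1.33. With 1 library per stage, differences between mice were not measured.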
